A study of Mus musculus with 12 samples.

Results

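Myosin is the motor of the heart's contraction. Each myosin molecule pairs heavy chains, which hydrolyse ATP and pull on actin, with an essential and a regulatory light chain on every heavy chain. The 10 genes described here were taken by symbol from a table of raw counts over 24062 gene symbols in 12 mouse hearts, and all 10 were found and passed the filter on low counts in every comparison. They are the cardiac heavy chains Myh6, Myh7 and Myh7b, the light chains Myl2, Myl3, Myl4 and Myl7, the cardiac light chain kinase Mylk3, and the myosin-binding proteins C Mybpc2 and Mybpc3.

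In the mouse, Myh6 encodes the fast alpha heavy chain of the adult heart, and Myh7 encodes the slower beta heavy chain, which prevails in the ventricle before birth and often returns under cardiac stress. Myl2 and Myl3 are the regulatory and essential light chains of the ventricle, and Myl7 and Myl4 are their counterparts in the atrium. The question put to the data was whether loss of function of LEMD2, a protein of the inner nuclear membrane, goes with other levels of these chains or with a shift between the isoforms of the adult ventricle and those of the fetal or atrial heart.

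Whole hearts were sequenced as polyA RNA, 1 library per mouse, in 4 groups of 3. WT and KI/KI hearts came from mice 2 months old, the KI/KI mice being homozygous for the c.T38>G change of Lemd2 in every cell. Floxed and cKO hearts came from postnatal day 1. The floxed mice carry Lemd2 alleles with loxP sites around the first exon, and the cKO mice carry them with a Myh6-Cre transgene, whose Cre recombinase is made in cardiomyocytes from the promoter of Myh6, itself one of the genes measured. The methods name no group with the transgene alone, so an effect of Cre and an effect of the deletion cannot be told apart. Both lines descend from edited founders crossed to C57BL/6N mice.

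Library totals ranged from 37063669 to 44789753 counts, at which 3 counts equal between 0.067 and 0.0809 CPM, the counts of a gene scaled to a fixed library total. Levels are given as CPM after TMM scaling over the 12 hearts. Lemd2 itself lay between 32.0 and 34.8 CPM in WT, 24.8 and 25.6 in KI/KI, 24.3 and 25.4 in floxed, and 6.59 and 13.1 in cKO hearts, so both mutant groups lay below their controls. Summed levels of 8 cardiomyocyte markers ranged from 32003 to 37796 CPM in WT, 27375 to 33682 in KI/KI, 22698 to 27248 in floxed and 22060 to 26789 in cKO hearts. In bulk tissue, fewer cardiomyocytes and less RNA per cardiomyocyte cannot be told apart. KI/KI replicate 5 stood apart with 442 CPM of the fibroblast gene Postn, against 121 and 167 in the other KI/KI hearts. The cKO hearts differed most among themselves, with replicate 4 nearly without Y-linked transcripts (0.0798 CPM over 4 genes, against 223 or more elsewhere) and replicate 6 low in atrial genes. Several values below are therefore also given without replicate 5 of KI/KI or replicates 4 or 6 of cKO.

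The heavy chain genes Myh6 and Myh7 lie side by side and in the same minus-strand orientation (GRCm38), at chr14:54941921-54966927 and chr14:54970684-54994626. Their coding sequences are 91.8% identical over 5799 aligned bases, so the counts behind every statement on them depend on reads being placed on the right copy. Of the 6039 stretches of 75 bases in the principal Myh6 transcript, the read length of the study, 939 (15.5%) also occur in Myh7, and such reads were uncertain for both genes. The longest shared run is 245 bases of coding sequence, spliced from exons 30 and 31 of Myh6 (chr14:54948327-54948725) and exons 32 and 33 of Myh7 (chr14:54974947-54975347). It is shown because no read inside it can be placed.
Myh6 and Myh7: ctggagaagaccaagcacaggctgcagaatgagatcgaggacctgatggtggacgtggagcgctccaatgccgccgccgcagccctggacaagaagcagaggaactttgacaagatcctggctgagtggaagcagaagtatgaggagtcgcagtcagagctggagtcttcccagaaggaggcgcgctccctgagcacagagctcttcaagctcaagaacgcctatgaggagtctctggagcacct
By contrast, the 75-base coding window in which the genes differ most holds 30 differences. It spans exons 24 and 25 of Myh6 (chr14:54952277-54952588) and exons 26 and 27 of Myh7 (chr14:54980352-54982180), and capitals mark the bases that differ.
Myh6: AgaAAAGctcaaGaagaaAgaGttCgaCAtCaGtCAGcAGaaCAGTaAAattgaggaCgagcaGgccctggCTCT
Myh7: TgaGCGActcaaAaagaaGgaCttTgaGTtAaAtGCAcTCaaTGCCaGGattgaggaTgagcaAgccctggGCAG
The light chain pairs are easier to separate. Myl3 and Myl4 are 78.1% identical and Myl2 and Myl7 65.9% in their coding bases, and neither pair shares a stretch of 75 bases.

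The proximal promoters of Myh6 and Myh7 are shown since the genes moved in opposite directions between the postnatal day 1 and adult control hearts described below. Each sequence covers bases -250 to -51 before a start given by RefSeq (GRCm38.p6), on the minus strand at chr14:54966658-54966857 and chr14:54994677-54994876. Capitals mark the MCAT word CATTCC, bound by TEAD factors, and the GATA words AGATAA or AGATAG and TGATAA or TGATAG, sought on both strands.
Myh6 promoter: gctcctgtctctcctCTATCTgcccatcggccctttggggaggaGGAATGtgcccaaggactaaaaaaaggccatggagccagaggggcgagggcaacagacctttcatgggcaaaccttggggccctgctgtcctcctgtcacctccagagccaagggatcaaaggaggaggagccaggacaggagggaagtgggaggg
Myh7 promoter: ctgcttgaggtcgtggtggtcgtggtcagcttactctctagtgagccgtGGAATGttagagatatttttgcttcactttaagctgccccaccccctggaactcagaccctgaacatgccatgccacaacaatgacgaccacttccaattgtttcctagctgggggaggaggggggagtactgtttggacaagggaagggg
Each promoter holds 1 MCAT word, at -206 in Myh6 and -201 in Myh7, and the Myh6 promoter also holds a GATA word at -235. Of 32851 mouse promoter windows of the same kind, 12.6% hold the MCAT word and 26.5% a GATA word.

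Introns of the heavy chain genes host microRNAs known as myomiRs. Mir208a lies in intron 29 of Myh6 (chr14:54949060-54949142), Mir208b in intron 31 of Myh7 (chr14:54975700-54975776) and Mir499 in intron 19 of Myh7b (chr2:155622880-155622958). Their mature forms from RefSeq are shown with the seed, bases 2 to 8, in capitals. The seeds of miR-208a-3p and miR-208b-3p are identical.
miR-208a-3p: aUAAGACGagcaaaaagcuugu
miR-208b-3p: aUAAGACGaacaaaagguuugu
miR-499-5p: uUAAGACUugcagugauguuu

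Myosin genes ranked among the most abundant transcripts of every group, except Myh7b (ranks 838 to 2204) and Mybpc2 (ranks 5637 to 10798). Myh6 was first of 24062 genes by mean CPM in all 4 groups and alone held 3.63% to 3.66% of the counts in WT hearts, while the 10 genes together held 5.50% to 5.63%. Their share was 4.37% to 5.34% in KI/KI, 3.89% to 4.38% in floxed and 3.04% to 3.65% in cKO hearts. To compare genes, CPM was divided by the length of the principal transcript. On this per-kilobase scale Myl2 was highest in WT hearts at 8440 ± 760 CPM per kb (mean ± SD, n = 3), followed by Myh6 at 6900 ± 342 and Myl3 at 4732 ± 367. The thick filament regulator Mybpc3 followed at 1447 ± 106, then the atrial chains Myl7 at 1123 ± 65.9 and Myl4 at 883 ± 93.3. Mylk3 at 245 ± 14.1 and Myh7 at 223 ± 56.5 overlapped and could not be ordered. Myh7b at 25.4 ± 3.29 and Mybpc2 at 8.98 ± 2.45 were lowest. Myl2, Myh6 and Myl3 were also the 3 highest by mean in the other groups, although Myl2 and Myh6 overlapped in the KI/KI hearts, and Myh6 and Myl3 in the KI/KI and cKO hearts.

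**Figure D1:**
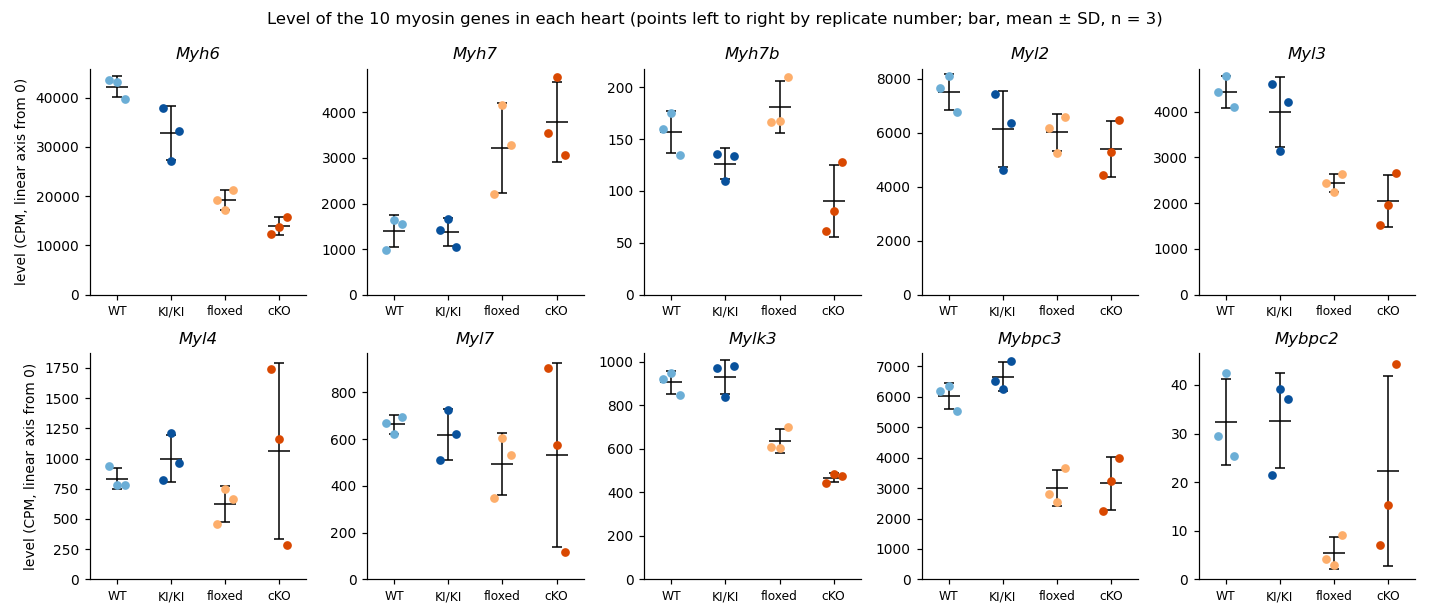
Level of each of the 10 genes in CPM on a linear axis from 0, with 1 point per heart, replicates from left to right, and the mean ± SD of 3 hearts per group. Mean Myh6 was highest in WT and lowest in cKO hearts, Myh7 was higher in both postnatal day 1 groups, and the 3 cKO hearts spread widely for Myl4, Myl7 and Mybpc2.

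In adult hearts no myosin gene was called between KI/KI and WT, in a comparison that called no gene at all. None of the 10 passed an adjusted p of 0.05 and a fold change above 2 in edgeR's quasi-likelihood test, as was true of all 14592 genes tested (0%). DESeq2 called 152 genes in this comparison and none of the 10. At an unadjusted p under 0.05 there was 1, Myh7b, against 16.2% of all genes. Of the 10 fitted changes 6 lay below 0 and 4 above, and their median log2 fold change was -0.05, beside 0.00 over all genes.

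Myh6 had the largest fitted change of the 10 genes in the adult hearts, although its unadjusted p was above that of Myh7b (0.0735 against 0.0347 in the edgeR test). WT replicates 1, 2 and 3 had 43590, 43172 and 39777 CPM, and KI/KI replicates 4, 5 and 6 had 37967, 27079 and 33168. Every KI/KI heart lay below every WT heart, and replicate 5 was the lowest. The fitted log2 difference was -0.36 with a standard error of 0.17 (adjusted p = 0.347), and it was -0.24 without KI/KI replicate 5. Myh6 was the only 1 of the 10 genes whose groups did not overlap, against 21.8% of all genes.

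The beta heavy chain did not follow. Myh7 was at 989, 1640 and 1548 CPM in WT and at 1429, 1650 and 1041 in KI/KI hearts. The groups overlapped almost completely, with a fitted change of -0.02 on the log2 scale (standard error 0.24, adjusted p = 0.979). Myh7b, a slow heavy chain gene whose intron hosts Mir499, was at 160, 175 and 135 CPM in WT and 136, 110 and 134 in KI/KI hearts, a fitted change of -0.31 on the log2 scale (standard error 0.12, adjusted p = 0.285). The lowest WT heart touched the KI/KI range.

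Light chains and binding proteins of the adult hearts also overlapped between genotypes. Myl2 was at 7661, 8086 and 6763 CPM in WT hearts and 7413, 4613 and 6358 in KI/KI hearts, and Myl3 at 4427, 4781 and 4094 against 4614, 3133 and 4222. In both genes KI/KI replicate 5 was the lowest of the 6 hearts. That heart was also the highest of the 6 in both atrial chains. Myl4 was at 934, 779 and 784 CPM in WT and 826, 1207 and 966 in KI/KI hearts, and Myl7 at 671, 621 and 697 against 510, 725 and 623. Their log2 fold changes were 0.27 (standard error 0.15) and -0.09 (standard error 0.14). Without replicate 5 they were 0.11 for Myl4 and -0.23 for Myl7, and those of Myl2 and Myl3 went from -0.29 and -0.15 to -0.12 and -0.0022. Summed levels of 9 atrial markers, none at 0 in any heart, ran from 954 to 1139 CPM in WT and from 1013 to 1338 in KI/KI hearts, the highest again in replicate 5. The part of these markers in the light chain values was not tested. Mylk3, Mybpc2 and Mybpc3 had log2 fold changes of 0.04, 0.02 and 0.15, with standard errors of 0.09, 0.27 and 0.11.

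In the postnatal day 1 hearts Myh7b was called lower in cKO than in floxed hearts, the only 1 of the 10 genes past the adjusted p and the fold change, where 4.64% of 15317 genes were called. It was at 166, 168 and 210 CPM in the floxed hearts and at 61.4, 80.8 and 128 in the cKO hearts. All cKO hearts lay below all floxed hearts, with replicate 6 the nearest. The fitted change was -1.02 on the log2 scale (standard error 0.25, adjusted p = 0.0344), close to the limit of 2-fold. Without cKO replicate 6 it was -1.35 (adjusted p = 0.00321). The call was lost without cKO replicate 4 (-0.81, adjusted p = 0.0494, under 2-fold), without cKO replicate 5 (-0.94, adjusted p = 0.124) and without floxed replicates 1, 2 or 3 (-1.08, -1.08 and -0.90, adjusted p = 0.114, 0.0909 and 0.0843). It was also lost when libraries were scaled on cardiomyocyte markers (-0.73, adjusted p = 0.0550). With Y-linked transcripts as a covariate, a measure that separates cKO replicate 4 from the rest, it was lost too (-0.79, adjusted p = 0.0600).

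Myh6 fell short of the threshold in the same hearts. It was at 19193, 17187 and 21317 CPM in floxed and 12248, 13756 and 15823 in cKO hearts, with no overlap. The log2 fold change of -0.47 (standard error 0.13) had an adjusted p of 0.0529, and without cKO replicate 6 it was -0.56 with an adjusted p of 0.0276. The adjusted p was also under 0.05 with DESeq2 (0.00240). In edgeR it was 0.0439 for genes with at least 10 counts in every library, and 0.0486 with no filter on low counts. Other settings raised the adjusted p, to 0.118 with the Y-linked covariate and 0.179 without floxed replicate 1. Under scaling on cardiomyocyte markers it was 0.264. The change stayed under 2-fold in each of these settings. Myh7 was at 2203, 4174 and 3275 CPM in floxed and 3548, 4775 and 3072 in cKO hearts. These groups overlapped, with a fitted change of 0.24 on the log2 scale (standard error 0.26, adjusted p = 0.535).

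Mylk3, the kinase that phosphorylates the ventricular regulatory light chain, was lower in cKO hearts at an adjusted p of 0.0178, but by less than 2-fold. It was at 610, 602 and 701 CPM in floxed and 442, 484 and 476 in cKO hearts. All cKO hearts lay below all floxed hearts, and the log2 fold change was -0.45 (standard error 0.08), the smallest error of the 10 genes. At an adjusted p under 0.05 with no fold limit, Mylk3 and Myh7b were 2 of 10, where 16.9% of all genes passed. Myh6 also passed that limit without cKO replicate 6, with DESeq2 and under either other filter on low counts, but not in the other settings named for it above. Without floxed replicate 1, floxed replicate 2 or cKO replicate 5 the adjusted p of Mylk3 was 0.0803, 0.0575 and 0.0714. Groups that did not overlap were found for Myh6, Myh7b and Mylk3, 3 of 10 and each lower in cKO, against 39.0% of all genes. The summed level of cardiomyocyte markers overlapped between the groups, while 4 of the 8 single markers, among them Ryr2 (-0.82) and Tnni3 (-0.48), had an adjusted p under 0.05 and lower levels. Of the others, Actn2 (0.32) and Actc1 (0.22) lay above 0. Under scaling on these markers, which raised the median log2 fold change of all genes to 0.27, Myh6 stood at -0.19 and Mylk3 at -0.17, neither with an adjusted p under 0.05. The part of cardiomyocyte content in these values was not tested.

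**Figure D2:**
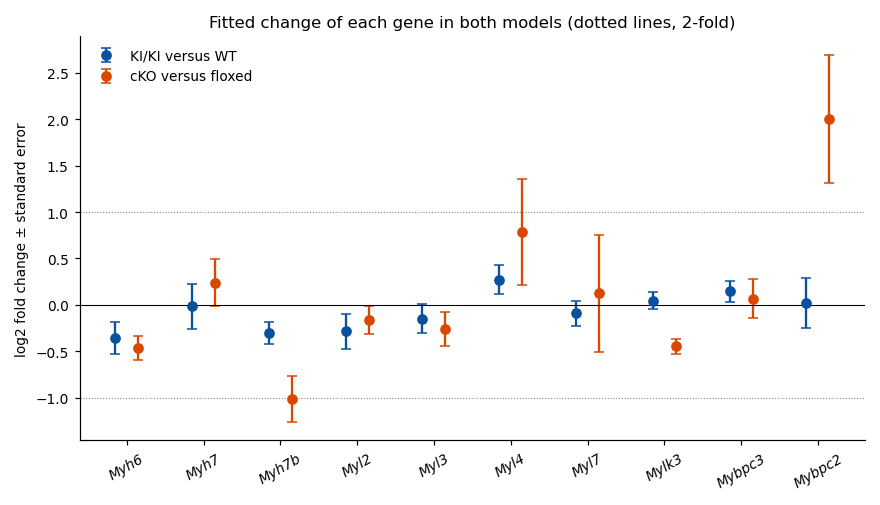
Fitted log2 fold change with its standard error for each gene, in KI/KI against WT hearts (blue) and cKO against floxed hearts (orange), from edgeR fits of 6 hearts each. Dotted lines mark 2-fold. Myh7b in the cKO hearts (-1.02) is the 1 called value, and Mybpc2 (2.00) and Myl4 (0.79) there have the widest errors with Myl7.

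The ventricular light chains did not pass the test in cKO hearts. Myl2 was at 6184, 5253 and 6569 CPM in floxed and 4426, 5294 and 6463 in cKO hearts, a log2 fold change of -0.16 (standard error 0.15). Myl3 was at 2452, 2237 and 2633 CPM in floxed and 1530, 1967 and 2659 in cKO hearts, a log2 fold change of -0.26 (standard error 0.18). In both genes the groups overlapped, and the cKO hearts stood in the order of replicates 4, 5 and 6 from low to high. Under scaling on cardiomyocyte markers both values turned to 0.12 and 0.026.

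The atrial light chains stood in the opposite order of the same 3 hearts. Myl4 was at 456, 748 and 664 CPM in the floxed hearts and at 1739, 1161 and 288 in cKO replicates 4, 5 and 6. Myl7 was at 347, 606 and 530 CPM in the floxed and 904, 574 and 118 in the cKO hearts. For Myl4, replicates 4 and 5 lay above and replicate 6 below every floxed heart, so that the log2 fold change of 0.79 had a standard error of 0.57 (adjusted p = 0.363). Without cKO replicate 6 it was 1.23 with an adjusted p of 0.0160, past the threshold, and without replicate 4 it was 0.21 (adjusted p = 0.803). For Myl7 the fitted change of 0.12 on the log2 scale (standard error 0.63, adjusted p = 0.908) ran from -0.52 without replicate 4 to 0.59 without replicate 6. It was -0.57 with Y-linked transcripts as a covariate, a measure that separates replicate 4 from the rest.

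Other atrial genes varied among the same hearts. Sln, the atrial regulator of the calcium pump, was at 24.8, 37.3 and 31.8 CPM in floxed and 44.7, 23.1 and 6.59 in cKO hearts. Bmp10, an atrial growth factor of the adult heart, was at 28.7, 34.1 and 43.8 CPM in floxed and 176, 75.4 and 22.6 in cKO hearts. Both placed replicate 6 lowest and replicate 4 highest among the cKO hearts, whereas Nr2f1 and Nr2f2, factors of atrial identity, were lowest in replicate 5. The 9 atrial markers, none at 0, summed to 513 to 621 CPM in floxed hearts and to 657, 447 and 263 in cKO replicates 4, 5 and 6. None of the 9 was called, 8 had log2 fold changes below 0, and the median was -0.75. The potassium channel gene Kcnj5 and the lipid transfer gene Stard10 had adjusted p values under 0.05 and lower levels (-1.0 and -0.87). How much atrial tissue each heart held was not measured, and the part of these markers in the Myl4 and Myl7 values was not tested.

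**Figure D3:**
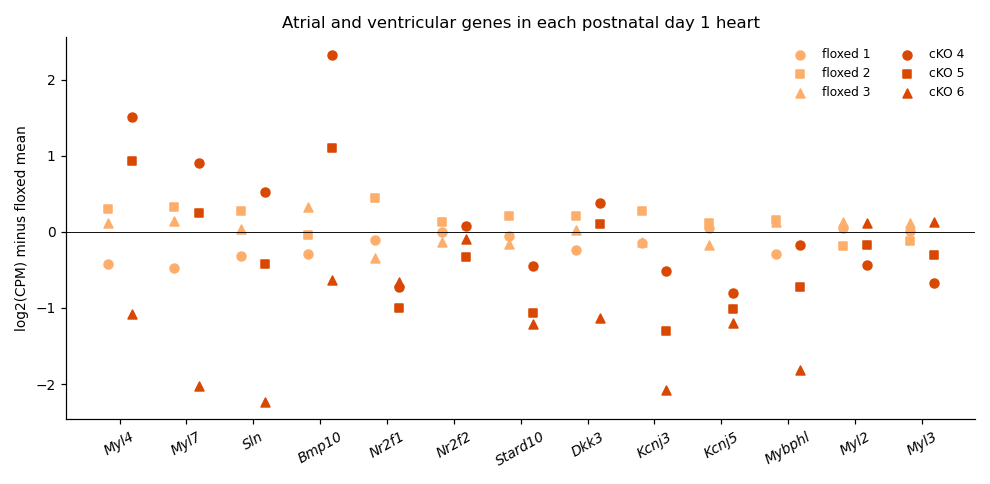
Atrial genes (Myl4, Myl7 and the 9 atrial markers) and the ventricular chains Myl2 and Myl3 in each postnatal day 1 heart, as log2 CPM minus the mean of the floxed hearts. Symbols give the replicate. The cKO triangles (replicate 6) lie lowest of the cKO hearts for Myl4, Myl7 and 7 of the 9 markers, the exceptions being Nr2f1 and Nr2f2, while for Myl2 and Myl3 they are the highest of the cKO hearts.

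Mybpc2 encodes the fast skeletal form of myosin-binding protein C and Mybpc3 the cardiac form. Mybpc2 was at 4.26, 3.00 and 9.08 CPM in floxed and 7.13, 15.3 and 44.4 in cKO hearts. The groups overlapped, and replicate 6 was far above the other cKO hearts. Its log2 fold change of 2.00 (standard error 0.69) had an adjusted p of 0.0904, which was 0.175 at a value of 1.04 without replicate 6. In 3 settings it was called, namely in a fit of all 12 hearts (2.01, adjusted p = 0.0302), with Y-linked transcripts as a covariate (2.50, adjusted p = 0.0423) and under scaling on cardiomyocyte markers (2.31, adjusted p = 0.0393). It was also called without cKO replicate 4 (2.42, adjusted p = 0.0396), the heart that the Y-linked covariate separates from the rest. Mybpc3 was at 2801, 2538 and 3660 CPM in floxed and 2257, 3230 and 3983 in cKO hearts and did not pass the test (log2 fold change 0.07, standard error 0.21). The 14 skeletal muscle markers summed to 66.0 to 88.1 CPM in floxed and 248, 306 and 130 in cKO replicates 4, 5 and 6. Most of that came from the single gene Casq1, at 227, 290 and 121, so the order of the sums is that of Casq1. Of the 11 markers tested, 7 lay above 0 and 4 below, with 2 called higher and 1 lower. The part of these markers in the Mybpc2 values was not tested.

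The change in the 2 models was compared in a fit of all 12 hearts, with the term for cKO against floxed minus KI/KI against WT. None of the 10 genes passed an adjusted p of 0.05, where 2.43% of 15729 genes did. At an unadjusted p under 0.05 there were 3, where 20.0% of all genes were, namely Mylk3 (-0.48, adjusted p = 0.0735), Myh7b (-0.70, adjusted p = 0.237) and Mybpc2 (2.00, adjusted p = 0.199). DESeq2 called Mylk3 here (adjusted p = 0.0105), and Myh7b was called without cKO replicate 6 (-1.03, adjusted p = 0.0239). A difference between the models was therefore not established for any member by the edgeR test of all hearts.

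More of these genes were called between the control groups than in either model. Floxed hearts at postnatal day 1 and WT hearts at 2 months differ in age, line and handling together, and these cannot be told apart. Of the 10 genes 4 were called, where 27.8% of all genes were, and 9 had groups that did not overlap, where 69.8% of all genes did. The median log2 fold change of the 10 was -0.46, beside 0.04 over all genes. Myh7 was higher in the floxed hearts by 1.21 on the log2 scale (standard error 0.28, adjusted p = 0.00253), although without floxed replicate 2 the value was 0.98 and under 2-fold. Myh6 was lower, at -1.13 on the same scale (standard error 0.16, adjusted p = 9.02e-05), and Mybpc2 by -2.57 (standard error 0.61, adjusted p = 0.00312). Mybpc3 at -1.0 lay at the limit of 2-fold and fell under it without WT replicate 1, WT replicate 2, floxed replicate 1 or floxed replicate 2 (-0.99, -0.97, -0.96 and -0.90). Scaling on cardiomyocyte markers raised the median log2 fold change of all genes to 1.07 in this comparison, and under it Myh6 stood at -0.11 and Mybpc3 at 0.018, neither called, while Myh7 and Mybpc2 were still called and Myh7b became called (1.24, adjusted p = 9.37e-05). Under that scaling 92.1% of the calls over all genes were higher in floxed hearts, against 51.0% under TMM. The 8 markers themselves differed between these groups, with 7 below 0 in floxed hearts and 3 called lower. Mean Tcap was 1607 CPM in WT and 86.1 in floxed hearts, while mean Actc1 was 12998 and 11209. The part of single markers such as Tcap in this scaling was not tested. Myl3 (-0.86) and Mylk3 (-0.50) had adjusted p values of 0.00226 and 0.000570 at less than 2-fold, and under marker scaling they turned to 0.17 and 0.52.

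Ratios between isoforms do not depend on how libraries are scaled. Each was taken per kilobase of principal transcript and compared by an exact permutation test, two-sided, on the mean log2 ratio. With 3 hearts against 3 the smallest p this test can give is 0.1, so no ratio could pass 0.05. Adjusted values are over 9 comparisons, 3 ratios in 3 comparisons.

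Myh7 made up 2.18%, 3.59% and 3.68% of the Myh6 and Myh7 total in the WT hearts and 3.56%, 5.64% and 2.99% in the KI/KI hearts. These overlapped, with a difference in mean log2 ratio of 0.37 (standard error 0.38, exact permutation p = 0.6, adjusted 0.9). In the floxed hearts the share was 10.1%, 19.2% and 13.1%, above every adult heart. In the cKO hearts it was 22.1%, 25.4% and 16.0%. The cKO and floxed hearts overlapped in 1 place, since cKO replicate 6 lay below floxed replicate 2, and the log2 ratio differed by 0.73 (standard error 0.40, exact permutation p = 0.2, adjusted 0.675). Floxed and WT hearts differed by 2.33 (standard error 0.40) with no overlap, at the smallest p the test can give (exact permutation p = 0.1, adjusted 0.675). Even in the cKO hearts Myh6 exceeded Myh7, by 2.94-fold to 5.25-fold per kilobase.

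The atrial share of the essential light chains, Myl4 over Myl4 and Myl3, was 13.9% to 17.3% in WT and 15.1% to 27.7% in KI/KI hearts. It was 15.6% to 24.9% in floxed hearts and 53.0%, 37% and 9.73% in cKO replicates 4, 5 and 6. Replicate 4 was the only heart of the 12 in which Myl4 exceeded Myl3 per kilobase, and replicate 6 had the lowest share of all. The log2 ratio differed by 0.42 (standard error 0.34, exact permutation p = 0.3, adjusted 0.675) between KI/KI and WT and by 0.74 (standard error 1.04, exact permutation p = 0.5, adjusted 0.9) between cKO and floxed hearts. Without cKO replicate 6 the latter was 1.71, and without replicate 4 it was 0.02.

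For the regulatory light chains, Myl7 over Myl7 and Myl2 was 10.4% to 13.4% in WT, 9.39% to 19.2% in KI/KI and 7.79% to 14.8% in floxed hearts. In cKO replicates 4, 5 and 6 it was 23.5%, 14% and 2.68%. The cKO group thus held both the highest and the lowest of the 12 values. The log2 ratio differed by 0.20 (standard error 0.37, exact permutation p = 0.7, adjusted 0.9) in KI/KI and by -0.12 (standard error 1.08, exact permutation p = 0.9, adjusted 0.9) in cKO hearts. The direction in cKO hearts turned to 0.89 without replicate 6. In the KI/KI hearts replicate 5 had the highest value of all 3 ratios, and without it the differences were 0.09 for Myh7 to Myh6, 0.11 for Myl4 to Myl3 and -0.11 for Myl7 to Myl2.

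**Figure D4:**
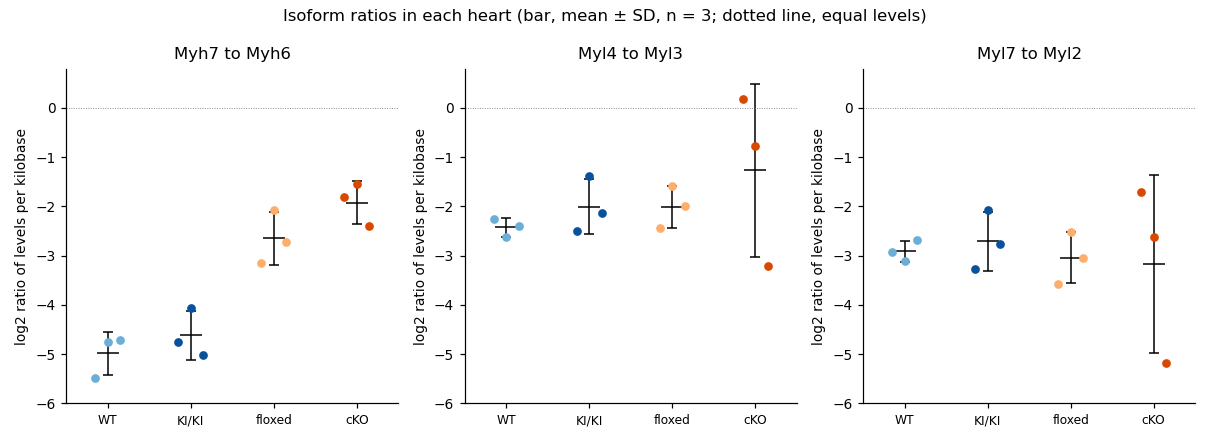
Log2 ratio of Myh7 to Myh6, Myl4 to Myl3 and Myl7 to Myl2 per kilobase in each heart, with the mean ± SD of 3 hearts per group. The dotted line marks equal levels. The heavy chain ratio separates both postnatal day 1 groups from both adult groups, and the light chain ratios spread most among the cKO hearts.

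The RNA counted on the Mir208b hairpin, inside the intron of Myh7, did not follow its host gene. It was at 18.6, 17.6 and 15.6 CPM in WT, 14, 10.6 and 12.4 in KI/KI, 6.05, 5.65 and 7.70 in floxed and 3.19, 2.79 and 3.57 in cKO hearts. Each group lay entirely below the one named before it, whereas Myh7 was higher in both postnatal day 1 groups. Within the models Myh7 did not pass the test, at log2 fold changes of -0.02 in KI/KI and 0.24 in cKO hearts. Opposite called changes were thus found only between floxed and WT hearts, which differ in age, line and handling. The Mir208b value was called lower in cKO than floxed hearts (log2 fold change -1.02, standard error 0.18, adjusted p = 0.0144) and in floxed than WT hearts (-1.41, standard error 0.15, adjusted p = 8.84e-06). Under marker scaling both were below 2-fold (-0.74 and -0.39), and the cKO call was lost without floxed replicate 1, floxed replicate 3 or cKO replicate 5 (-1.08, -0.89 and -0.93). In KI/KI hearts its log2 fold change of -0.48 had an adjusted p of 0.209. PolyA libraries do not measure the mature microRNA, and reads of unspliced or antisense transcripts that overlap the hairpin cannot be told apart from it. The strand setting of the counting is not given in the sources used here. Mir208a stayed between 0.653 and 2.99 CPM and was called higher in floxed than WT hearts (1.35, adjusted p = 0.00120). Mir499 lay between 0.0435 and 0.256, where several libraries were at or under 3 counts. The antisense gene Mhrt, which shares 484 exon bases with Myh7, was not analysed here.

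**Figure D5:**
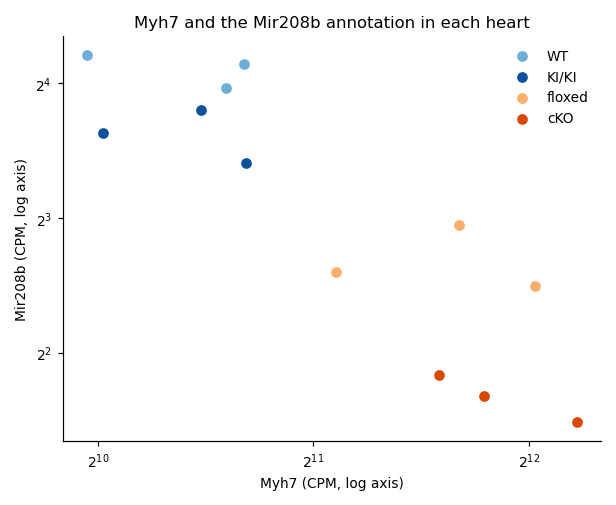
Counts on the Mir208b annotation against Myh7 in each of the 12 hearts, both in CPM on log axes and coloured by group. The cKO hearts lie at the lowest Mir208b levels (2.79 to 3.57 CPM) with Myh7 at 3072 to 4775 CPM, and the WT hearts at the highest.

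Other genes of the myosin machinery were taken from 7 lists that together hold 55 genes. None was called in KI/KI hearts, with 46 tested and 23 fitted changes on either side of 0. Among the skeletal heavy chains only the developmental chain Myh8 was tested there, at low levels. It ranged from 0.244 to 0.514 CPM in WT and from 0.924 to 2.76 in KI/KI hearts. Every KI/KI heart thus lay above every WT heart, where 21.8% of all genes had groups without overlap. The fitted value for Myh8, 2.11 on the log2 scale, was not called. In cKO hearts 51 of the 55 genes were tested. Of these, 5 were called higher and 1 lower (11.8%, beside the 4.64% of all genes given above), and the median log2 fold change was 0.20.

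Among non-muscle and smooth muscle heavy chains, 1 of 4 was called. Myh9, the non-muscle myosin IIA heavy chain, rose from 285, 292 and 335 CPM in floxed to 572, 653 and 610 in cKO hearts (log2 fold change 1.01, adjusted p = 0.00481). Its fold change sat at the limit and was under 2-fold without floxed replicate 1, floxed replicate 2 or cKO replicate 5 (0.96, 0.97 and 0.96), and also when only genes with at least 10 counts in every library were tested. None of the 7 tested other light chains was called, although all 7 lay above 0. The skeletal light chains Mylpf (1.14) and Myl1 (1.04) were above 2-fold with adjusted p values of 0.0724 and 0.133. Myl12a, a non-muscle regulatory light chain, was at 225, 265 and 288 CPM in floxed and 509, 535 and 453 in cKO hearts (0.95, adjusted p = 0.00684). Of the skeletal heavy chains, 4 of 7 were tested and 1 was called. Myh1 rose, but from 0.113, 0.196 and 0.320 CPM to 0.739, 1.21 and 0.608 (2.01, adjusted p = 0.0305), which is 25 to 58 counts per cKO heart. That call was lost without floxed replicate 1, floxed replicate 2 or cKO replicate 5 (1.72, 1.95 and 1.68) and with the Y-linked covariate (adjusted p = 0.0530).

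Of the 7 kinases and phosphatase subunits of the light chains, 1 was called. Mylk4, a myosin light chain kinase of striated muscle, rose from 19.0, 20.0 and 29.1 CPM in floxed to 82.2, 65.1 and 46.9 in cKO hearts (1.52, adjusted p = 0.0126), while Mylk3 was lower in the same hearts. Without floxed replicate 1, floxed replicate 2 or cKO replicate 5 the adjusted p of Mylk4 was 0.0759, 0.0593 and 0.0520. In the list of thick filament assembly, M-band and turnover, 2 of 11 were called, both higher, while 7 of the 11 lay below 0 with a median of -0.14. Trim63 (-0.60), Unc45b (-0.48) and Ttn (-0.45) had adjusted p values of 0.00728, 0.0316 and 0.0271 in the lower direction, within 2-fold. Hsp90aa1, a chaperone of myosin folding, was at 138, 147 and 155 CPM in floxed and 366, 325 and 308 in cKO hearts (1.19, adjusted p = 0.00481), and this call was kept with each heart left out. Trim54, a ubiquitin ligase of the sarcomere, was at 4.11, 7.91 and 7.44 CPM and 16.5, 14.6 and 12 (1.15, adjusted p = 0.0271). Its call was kept only without cKO replicate 6 among the 6 single-heart omissions, with values between 0.90 and 1.31. None of the 3 other myosin-binding proteins was called.

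Among 15 transcriptional regulators of cardiac myosin genes, 1 was called in cKO hearts and 7 had an adjusted p under 0.05, all lower. Sox6, a repressor of slow fibre genes in skeletal muscle, fell from 28.7, 48.2 and 32.7 CPM in floxed to 15.8, 15.4 and 18.5 in cKO hearts (log2 fold change -1.15, adjusted p = 0.0145). Without floxed replicate 1, floxed replicate 2 or cKO replicate 5 the Sox6 call was lost (-1.30, -0.90 and -1.09), and under marker scaling it was under 2-fold (-0.87). Mef2a, a MADS-box factor of muscle genes, was at 630, 663 and 642 CPM in floxed and 413, 427 and 432 in cKO hearts (-0.61, adjusted p = 0.00634). The others were Thra (-0.48), which encodes the main thyroid hormone receptor of the heart, Gata6 (-0.46), Mef2c (-0.41), Mef2d (-0.46) and Nkx2-5 (-0.36). These lay within 2-fold. In KI/KI hearts none of the 15 passed, and 7 changes lay above and 8 below 0.

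Between floxed and WT hearts 19 of the 51 tested pathway genes were called (37.3%, beside 27.8% of all genes), 7 higher and 12 lower. Higher were the developmental skeletal heavy chains Myh8 (4.54) and Myh3 (2.98), the non-muscle chain Myh10 (1.83) and the smooth muscle light chain Myl9 (4.19). Lower were Trim54 (-5.0), Mylk4 (-4.83), Myh14 (-4.13), the M-band gene Myom2 (-1.76) and the thyroid hormone receptor gene Thrb (-2.39). Also called were Mybpc1 (3.43) and Gata6 (1.31), both higher, and Mybphl (-2.02), Myom3 (-1.37), Myl12a (-1.26), Ppp1r12b (-1.11) and Myl1 (-1.02), all lower. Under marker scaling Myom2 (-0.75), Myom3 (-0.35), Myl12a (-0.24), Ppp1r12b (-0.079) and Myl1 (-0.0042) were under 2-fold. The Myl1 call was also lost without each of WT replicates 1, 2 and 3 and floxed replicates 1 and 3 (-0.99, -1.05, -1.03, -0.84 and -1.09).

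The genes whose pattern was most like a member's were sought by Pearson's r of log2 CPM over the 12 hearts, after centring within each age, among 11120 genes of at least 5 CPM. The 12 points share libraries and the difference between genotypes at each age, so r is a description. For Myl7 the nearest were Sln (r = 0.954), Arhgap31 (0.951) and Zim1 (0.945). Of these Sln is itself an atrial marker. For Myl4 they were Gpr126 (0.974), Gpx3 (0.971) and Impact (0.956). Among those nearest to Myh7 were Ngfrap1 (0.841) and Manbal (0.795). Among the adult hearts alone, Sln had r = 0.763 with Myl7, Gpx3 r = 0.867 with Myl4 and Ngfrap1 r = 0.921 with Myh7. Zim1 had r = 0.139 with Myl7 in the adult hearts and 0.987 in the postnatal day 1 hearts.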

How the data were processed

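Whole hearts of 12 mice were profiled by polyA RNA-Seq. Per the labels and methods, the authors used Trim Galore for trimming, STAR for alignment (mm10) and HTSeq for counting, and the deposited values are raw counts without normalization. The strand setting and the handling of multiply mapped reads are not given in the sources used here.

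Differences were fitted in edgeR 4.0.16 under R 4.3.3 (TMM, filterByExpr, robust quasi-likelihood test, Benjamini-Hochberg adjustment over all tested genes). KI/KI against WT and cKO against floxed each used their own 6 libraries. Floxed against WT and the difference between the models used all 12. A gene was called when its adjusted p was below 0.05 and it differed more than 2-fold (for the difference between the models, the adjusted p alone). Standard errors were derived from the fitted change and its F statistic. Means are given ± SD. The floor of 3 counts covers counting error only. No pair of replicates agreed within sampling noise (chi-square per degree of freedom 19.3 to 138), and p-values measure the spread between single hearts. The script was tested on simulated counts.

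Gene positions and transcripts are those of GENCODE M21 on GRCm38, and promoters and microRNAs those of RefSeq on GRCm38.p6. All 10 members matched by symbol. Ratios used principal transcript lengths and scipy.

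Named genes were all members, up to 4 called genes per list and comparison with the largest change, the 3 genes most like Myh7, Myl4 and Myl7, and leading markers. Mef2a, Thra, Mef2d, Gata6, Nkx2-5, Ryr2, Tnni3, Tcap, Kcnj5, Stard10, Actn2, Actc1, Mylpf, Trim63, Unc45b, Ttn and Postn were chosen after their values were seen. A few genes that the rule names are not reported here. The members and lists were chosen with earlier results of these data known. Lists of smooth muscle, endothelial, leukocyte and lung markers served as checks of composition and are given under the other observations. Alternatives were DESeq2 1.42.0, RLE size factors, scaling on cardiomyocyte markers, other filters (none, or at least 10 counts in every library), one fit of all libraries, no fold limit, a Y-linked covariate, each library left out, and, added after seeing the data, the legacy dispersion of edgeR.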

Additional observations from a re-analysis of the deposited data

Results flagged for a closer look

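The difference between the models, cKO against floxed minus KI/KI against WT, was tested as an interaction in edgeR for all genes. None of the 10 myosin genes passed an adjusted p of 0.05, and 5 genes of the myosin lists did. Myl12a had a log2 difference of 0.88 (standard error 0.14, adjusted p = 0.0170), Myh9 of 0.95 (standard error 0.15, adjusted p = 0.0170), Hsp90aa1 of 0.71 (standard error 0.14, adjusted p = 0.0309), Mylk4 of 1.9 (standard error 0.38, adjusted p = 0.0327) and Mef2c of -0.54 (standard error 0.11, adjusted p = 0.0362). Each call was lost in some of the 12 fits with 1 library left out, 3 of them for Myl12a, 5 for Myh9, 7 for Mylk4, 8 for Hsp90aa1 and 9 for Mef2c, although no direction turned. Under scaling on cardiomyocyte markers the adjusted p was 0.0568 for Myh9, 0.0760 for Hsp90aa1 and 0.157 for Mef2c. In KI/KI against WT hearts the log2 fold changes were 0.07 for Myl12a and Myh9, 0.48 for Hsp90aa1, -0.39 for Mylk4 and 0.15 for Mef2c. None of these was called. Groups overlapped for all but Hsp90aa1, which was higher in each KI/KI heart, where 21.8% of all genes had groups without overlap. The models differ in age, allele and the cells affected, which cannot be told apart. Groups of 3 hearts were too small for a test of single outlying values.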

How the results depend on the processing

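No paired analysis was possible because the labels do not give the litter of a heart. The paper describes the WT hearts as those of littermates of the KI/KI mice. In KI/KI hearts the count of members called was 0 under each alternative run. In cKO hearts the 1 member called became 2 with all 12 libraries in one fit (Myh7b and Mybpc2) and 2 with no fold limit (Myh7b and Mylk3), and 0 to 2 with single libraries left out. The count was 1 under marker scaling, with the Y-linked covariate and without cKO replicate 4, but the gene was then Mybpc2 in place of Myh7b. Between floxed and WT hearts the 4 members called became 2 to 4 with single libraries left out, and 3 under marker scaling, with Myh6 and Mybpc3 lost and Myh7b (1.24) gained. For the difference between the models the count of 0 became 1 with DESeq2 and 0 to 1 with single libraries left out. Over all genes, KI/KI calls went from 0 to 152 with DESeq2, 33 with all 12 libraries in one fit and 0 to 38 with single libraries left out, cKO calls from 710 to 1138 under marker scaling, 2587 with no fold limit and 103 to 957 with single libraries left out, floxed against WT calls from 4368 to 8951 under marker scaling, and calls of the difference from 383 to 1343 with DESeq2, 112 under marker scaling and 51 to 924 with single libraries left out. The cause of these shifts was not tested.

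Scaling on cardiomyocyte markers turned the direction of uncalled values in KI/KI hearts for Myh7 (0.21), Myl3 (0.053) and Myl7 (0.14), in cKO hearts for Myl2 (0.12) and Myl3 (0.026), and between floxed and WT hearts for Myl2 (0.71), Myl3 (0.17), Myl4 (0.61), Myl7 (0.59), Mylk3 (0.52) and the called Mybpc3 (0.018). The median of all genes moved by construction to 0.22, 0.27 and 1.07 in these comparisons. Calls in cKO hearts were then 86.6% higher, against 61.5% under TMM. The Y-linked covariate turned Myl7 in cKO hearts to -0.57.

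With single libraries left out, directions turned in KI/KI hearts for Myh7 (-0.22 to 0.15), Myl7 (-0.23 to 0.029) and Mybpc2 (-0.14 to 0.25), and in cKO hearts for Myl7 (-0.52 to 0.59) and Mybpc3 (-0.12 to 0.25). For the difference between the models they turned for Myh6 (-0.21 to 0.025), Myl2 (-0.024 to 0.30), Myl3 (-0.32 to 0.075), Myl4 (-0.042 to 0.96), Myl7 (-0.41 to 0.69) and Mybpc3 (-0.27 to 0.12). The log2 ratio of Myl7 to Myl2 ran from -0.11 to 0.49 in KI/KI, -0.86 to 0.89 in cKO and -0.40 to 0.13 in floxed against WT hearts, and as a percent of the pair the cKO difference was 2.27 percentage points, opposite in sign. The other ratios kept their direction. Where run, the legacy dispersion, RLE size factors, a minimum of 10 counts and leaving out the filter changed no call of a member. Depth did not limit the members, since the lowest, Mybpc2, stood above the floor of 3 counts in each library.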

Other observations

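Summed per kilobase, the essential light chains Myl3 and Myl4 stood at 0.784, 0.809 and 0.770 of the summed heavy chains Myh6 and Myh7 in WT hearts and at 0.901, 0.985 and 0.989 in KI/KI hearts. In the floxed hearts the value was 0.887, 0.913 and 0.876, and in the cKO hearts 1.35, 1.1 and 1.02. Both mutant groups lay above their controls with no overlap. Among single genes, 21.8% in KI/KI and 39.0% in cKO hearts had groups that did not overlap. The regulatory chains Myl2 and Myl7 stood at 1.34, 1.39 and 1.30 of the heavy chains in WT and 1.43, 1.37 and 1.47 in KI/KI hearts, which overlapped, and at 2.16, 1.99 and 2.07 in floxed and 2.53, 2.30 and 2.42 in cKO hearts, which did not. Taken alone, the essential and the regulatory sums overlapped between genotypes in both models. The heavy chain sums were lower in both mutant groups with no overlap, as was Myh6 alone. These sums were computed after the values of the genes were seen, and the differences were not tested.

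Marker genes of other tissues also differed between the hearts. Smooth muscle markers summed to 217 to 269 CPM in WT, 198 to 341 in KI/KI, 1821 to 2436 in floxed and 2095 to 3994 in cKO hearts, and fibroblast markers to 1446 to 1650, 1698 to 2975, 3788 to 4172 and 5519 to 6081. Ventricular markers did not overlap between floxed (4031 to 4724) and cKO hearts (1725 to 2550), mostly through the calcium pump regulator Pln, with 2 of 6 genes called lower. Endothelial markers ranged from 894 to 1348 CPM over all hearts, leukocyte markers from 10.4 to 35.3, and lung epithelium markers from 0.506 to 101, the last in WT replicate 3. Their part in the myosin values was not tested.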
